A study of Rattus norvegicus with 6 samples.

Results

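The chemokine Cxcl12 and its receptors Cxcr4 and Ackr3 are described here in rat common carotid arteries. The members were taken as the rows of the deposited count table with these symbols, and all 3 were found among 24005 gene symbols. Each was chosen with its level in these libraries known, so the levels are given as a description with no test. Polyadenylated RNA was sequenced from 2 arteries taken at day 7 and 3 taken at day 1 after recanalization, and from 1 normal artery, the control. The recanalized arteries had carried a ferric chloride thrombus, which was opened by sonodynamic therapy with a physical-explosion therapy. The labels state neither strain, sex nor age, nor whether the libraries came from separate rats, so the spread between libraries may be technical. With no artery that was only injured or only treated, the effects of injury and treatment cannot be told apart, and the control has no replicate.

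CXCL12, also called SDF-1, is a chemokine made by stromal, smooth muscle and endothelial cells that binds the proteoglycans of the vessel wall. CXCR4, a G protein-coupled receptor of leukocytes and progenitor cells, moves cells toward CXCL12. ACKR3, formerly CXCR7, is an atypical receptor that signals through arrestins and takes CXCL12 up for degradation, and so shapes the gradient that CXCR4 reads. In injured arteries of mice the pair CXCL12 and CXCR4 is known for recruiting smooth muscle progenitors.

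Total counts per library ranged from 30078022 to 47240013. Day 1 replicate 1 stood apart: in log2 CPM across genes it correlated (Pearson r) at 0.883 and 0.919 with the other day 1 libraries and at 0.948 with the control, while day 1 replicates 2 and 3 correlated at 0.958. Its 4 pan-leukocyte markers (Ptprc, Coro1a, Laptm5 and Cd53) summed to 13.8 CPM, against 736 and 462 CPM in day 1 replicates 2 and 3 and 6.43 CPM in the control. CPM is a gene's count scaled to the library total, which was corrected by trimmed mean of M-values (TMM) factors. Whether the label of day 1 replicate 1 is right could not be settled from the files, which bears on every day 1 mean, SD and ratio below. The members' day 1 means, their ratios of means and the counts of pathway genes called are also given without it. Ratios to markers are given for each library. The 6 smooth muscle markers summed to 6352 to 27630 CPM and the 6 endothelial markers to 88.0 to 1484 CPM over the 6 libraries, and the adipocyte and the thyroid and parathyroid markers to at most 1.26 CPM. Skeletal muscle markers summed to 75.9 and 35.0 CPM at day 7, 102, 9.19 and 9.98 CPM at day 1 and 84.0 CPM in the control, and Schwann cell markers to 8.82 to 40.4 CPM over the 6 libraries. Red cell markers summed to 526 and 42.6 CPM at day 7, 2329, 1282 and 1227 CPM at day 1 and 237 CPM in the control, so here day 1 replicate 1 lay nearer to its group. Pericyte markers ranged from 244 to 619 CPM and arterial endothelial markers from 57.2 to 235 CPM.

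The promoter windows of the 3 genes are shown because the ligand and the receptor Cxcr4 were both higher after recanalization while Ackr3 was not. Each runs 5′ to 3′ from 250 bases before to 50 bases after the annotated start, on build GRCr8 from RefSeq. The Cxcl12 window is chr4:152060531-152060830 on the plus strand, that of Cxcr4 is chr13:42634239-42634538 on the minus strand and that of Ackr3 is chr9:98247104-98247403 on the plus strand. Capitals mark the GC box GGGCGG, the hypoxia response core GCGTG and the TATA box TATAAA, on either strand.
Cxcl12: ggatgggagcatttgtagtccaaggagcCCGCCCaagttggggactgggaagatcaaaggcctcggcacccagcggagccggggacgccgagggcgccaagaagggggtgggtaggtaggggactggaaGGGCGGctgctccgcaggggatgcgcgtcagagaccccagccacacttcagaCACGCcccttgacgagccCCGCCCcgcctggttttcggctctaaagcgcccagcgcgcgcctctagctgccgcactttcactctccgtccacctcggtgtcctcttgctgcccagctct
Cxcr4: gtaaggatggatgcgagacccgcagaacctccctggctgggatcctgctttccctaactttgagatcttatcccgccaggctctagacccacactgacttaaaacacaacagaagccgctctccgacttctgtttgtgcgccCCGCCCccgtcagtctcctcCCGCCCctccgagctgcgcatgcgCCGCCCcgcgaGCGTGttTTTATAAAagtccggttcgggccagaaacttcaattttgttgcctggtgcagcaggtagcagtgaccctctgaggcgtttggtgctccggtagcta
Ackr3: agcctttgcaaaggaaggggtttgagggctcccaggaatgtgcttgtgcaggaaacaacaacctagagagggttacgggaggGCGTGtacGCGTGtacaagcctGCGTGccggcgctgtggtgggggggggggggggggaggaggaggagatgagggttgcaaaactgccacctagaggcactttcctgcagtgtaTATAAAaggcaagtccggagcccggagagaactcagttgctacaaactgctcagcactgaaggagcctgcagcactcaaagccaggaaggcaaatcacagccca

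Cxcl12 and Cxcr4 each had 3 GC boxes, the letters read by Sp1, and Ackr3 had 0. Over all 33469 windows of this length 33.1% held at least 1 GC box and 8.97% at least 3. The core GCGTG, part of the element read by the hypoxia factors HIF-1 and HIF-2, was present once in Cxcl12 and once in Cxcr4, at 69 and 53 bases before the start, and 3 times in Ackr3, at 168, 160 and 146 bases. It was found at least once in 29.7% of windows and at least 3 times in 3.59%. Its variant ACGTG, held by 19.3% of windows, was in none of the 3. TATAAA, held by 14.2%, was found in Cxcr4 on both strands at overlapping positions 46 and 44 bases before the start, and in Ackr3 at 54 bases. The other matches did not overlap. CpG pairs numbered 23 in Cxcl12, 20 in Cxcr4 and 9 in Ackr3, against a median of 7.0 over all windows. These matches describe letters only, and no binding or chromatin data were used.

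Cxcl12, the ligand, was most abundant at day 7. It had 169 and 188 CPM in day 7 replicates 1 and 2, 43.4, 63.3 and 62.3 CPM in day 1 replicates 1 to 3 and 32.5 CPM in the control. The groups did not overlap, with every day 7 library above every day 1 library and every day 1 library above the control. The mean was 178 ± 14.0 CPM at day 7 (SD, n = 2) against 32.5 CPM in the control, a 5.49-fold ratio. It was 56.3 ± 11.2 CPM at day 1 (SD, n = 3), 1.73-fold over the control, and 62.8 ± 0.693 CPM without day 1 replicate 1 (n = 2), 1.93-fold over it. Between the time points the ratio of day 7 to day 1 was 3.17, or 2.84 without that library. Counting error was small beside these differences, as the exact Poisson 95% interval of the control was 30.5 to 34.6 CPM. The order control, day 1, day 7 without overlap was met by 509 of 15860 genes tested, or 3.21%, and nothing is read from this share for a gene chosen by its levels.

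Cxcr4, the signalling receptor, was close to absent from the normal artery and abundant in 4 of the 5 recanalized ones. Day 7 replicates 1 and 2 had 109 and 66.2 CPM, and day 1 replicates 1 to 3 had 1.76, 52.0 and 50.7 CPM. The control had 0.455 CPM from 14 counts, with an exact Poisson 95% interval of 0.248 to 0.763 CPM, and day 1 replicate 1 had 55 counts with an interval of 1.33 to 2.29 CPM. All recanalized libraries were thus above the control and both day 7 libraries above all day 1 libraries, with day 1 replicate 1 far nearer to the control than to its own group. The mean was 87.7 ± 30.4 CPM at day 7 (SD, n = 2), 193-fold over the control. At day 1 it was 34.8 ± 28.6 CPM (SD, n = 3), 76.6-fold over the control, and without replicate 1 it was 51.3 ± 0.976 CPM (n = 2), 113-fold over the control. The ratio of day 7 to day 1 was 2.52 and moved to 1.71 without day 1 replicate 1. The difference between the 2 day 7 libraries was larger than that between the day 7 mean and the day 1 mean without replicate 1.

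Ackr3, the scavenging receptor, was not higher than in the control. Its level was 70.2 and 34.2 CPM in day 7 replicates 1 and 2, 41.6, 56.8 and 40.7 CPM in day 1 replicates 1 to 3 and 74.4 CPM in the control. On this scale all 5 recanalized libraries were below the single control, and day 7 and day 1 overlapped. On plain library totals without TMM factors, day 7 replicate 1 had 74.5 CPM against 71.6 CPM in the control, so that library changes sides with the scaling while the other 4 stayed below. The mean was 52.2 ± 25.4 CPM at day 7 (SD, n = 2) and 46.3 ± 9.02 CPM at day 1 (SD, n = 3), or 0.702 and 0.623 of the control level. Without day 1 replicate 1 the day 1 mean was 48.7 ± 11.3 CPM (n = 2), or 0.655 of the control level. Day 7 replicates differed by more than the day 7 mean did from the control, and without day 7 replicate 1 the fitted log2 fold change over the control was -1.12, against -0.51 with it.

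**Figure D1:**
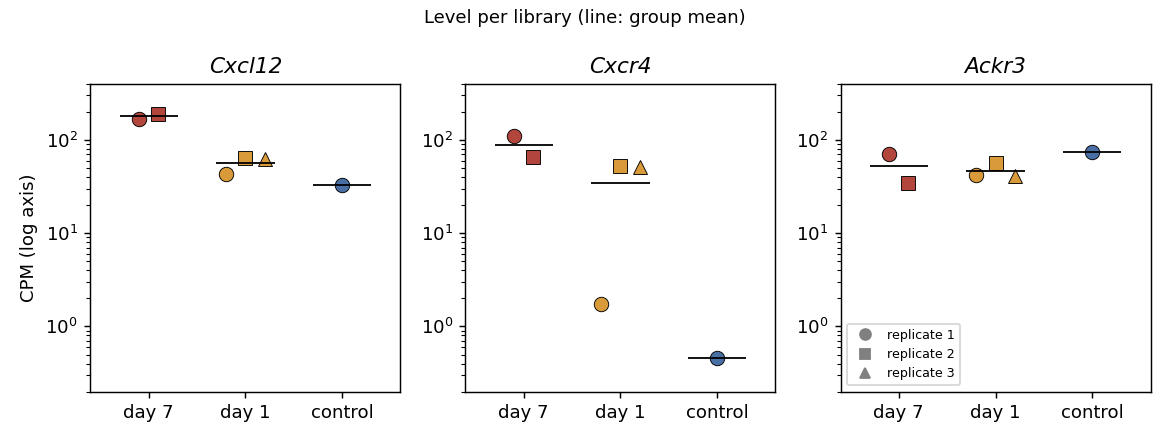
CPM on a log axis for Cxcl12, Cxcr4 and Ackr3 in the day 7 (n = 2), day 1 (n = 3) and control (n = 1) libraries; points are libraries, shapes give the replicate number within a group and lines the group means. Cxcl12 separates the groups, Cxcr4 spans 0.455 to 109 CPM with day 1 replicate 1 at 1.76 CPM, and Ackr3 lies between 34.2 and 74.4 CPM.

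As a background for these counts, 42.9% of genes had both day 7 libraries above the control and 36.2% both below, and 27.5% had all day 1 libraries above the control and 27.2% all below. Both day 7 libraries were above all day 1 libraries for 17.2% of genes and below all of them for 16%. The comparisons with the control share its single library, so they are not independent. By the fitted log2 fold change at day 7 over the control (edgeR), 1.83% of genes were as high as Cxcr4 at 7.58 and 11.2% as high as Cxcl12 at 2.46, whereas 79.3% were as high as Ackr3 at -0.51. At day 1 the shares were 2.75% for Cxcr4 at 6.25, 24.6% for Cxcl12 at 0.79 and 88% for Ackr3 at -0.68. The median over all genes was 0.10 at day 7 and 0.06 at day 1 on the same scale.

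Per gene length, the order of the 3 transcripts differed between the arteries. The deposited FPKM, fragments scaled for gene length and library size, allows levels of different genes to be set side by side. In day 7 replicate 1 Cxcr4 led with 67.8 FPKM over Cxcl12 with 53.1 and Ackr3 with 36.5 FPKM. In day 7 replicate 2 Cxcl12 led with 58.8 FPKM over Cxcr4 with 40.8 and Ackr3 with 17.7 FPKM. Cxcr4 led in day 1 replicates 2 and 3 as well, with 31.7 and 30.6 FPKM, over Ackr3 with 28.9 and 20.6 FPKM and Cxcl12 with 19.5 and 19.1 FPKM. Day 1 replicate 1 and the control shared another order. Ackr3 led there with 17.7 FPKM in day 1 replicate 1 and 35.1 FPKM in the control, above Cxcl12 with 11.1 and 9.28 FPKM and Cxcr4 with 0.893 and 0.256 FPKM.

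The ratio of ligand to scavenging receptor, Cxcl12 FPKM over Ackr3 FPKM, was chosen after its values were seen. It was 1.45 and 3.33 in day 7 replicates 1 and 2, 0.631, 0.674 and 0.925 in day 1 replicates 1 to 3, and 0.264 in the control. The ligand transcript thus exceeded that of its scavenger in both day 7 libraries and in no other, and the groups did not overlap. In this ratio day 1 replicate 1 lay beside the rest of its group rather than beside the control. Protein was not measured, and the share of other gene pairs with such an order was not computed.

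**Figure D2:**
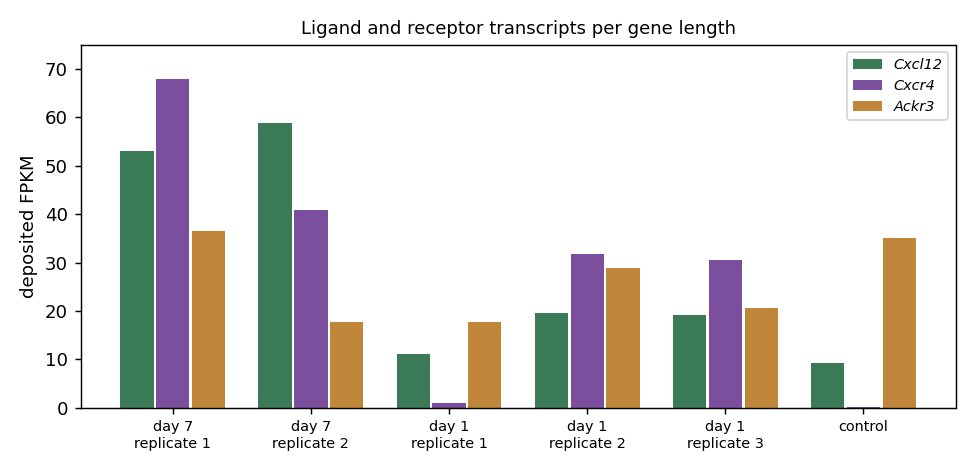
Deposited FPKM of Cxcl12, Cxcr4 and Ackr3 in each library, as bars from 0. Ackr3 is the tallest bar in the control (35.1) and in day 1 replicate 1 (17.7), and the shortest in both day 7 libraries (36.5 and 17.7).

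The artery wall is a mixture, and in bulk RNA fewer cells of a type and less RNA per cell cannot be told apart. The 4 pan-leukocyte markers summed to 574 and 484 CPM at day 7, 13.8, 736 and 462 CPM at day 1 and 6.43 CPM in the control. Like Cxcr4, the sum was lowest in the control and day 1 replicate 1, but day 7 and day 1 overlapped in it. The part of leukocytes in the Cxcr4 difference was not tested. Per Ptprc, the leukocyte surface phosphatase CD45, the FPKM ratio of Cxcr4 was 3.31 and 1.44 at day 7, 0.826, 0.782 and 0.988 at day 1 and 1.34 in the control. Both day 7 libraries exceeded all others in this ratio, but the control's value rests on 14 counts of Cxcr4 and 30 of Ptprc. Over all 6 libraries the order depended on the marker: it was met for 2 of the 4 pan-leukocyte markers, Ptprc and Coro1a. Per Cd53, a leukocyte tetraspanin, the Cxcr4 ratio was 0.884 and 0.623 at day 7, 1.22, 0.347 and 0.489 at day 1 and 0.561 in the control. Per Laptm5 it was 0.473 and 0.455 at day 7, 0.624, 0.208 and 0.424 at day 1 and 0.137 in the control. For both markers day 1 replicate 1 exceeded both day 7 libraries. Without that library, both day 7 libraries were above all others for Cd53 and Laptm5 too.

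Macrophage markers, 7 genes including Csf1r and Mrc1, summed to 1379 and 971 CPM at day 7, 15.7, 1053 and 597 CPM at day 1 and 54.1 CPM in the control. The ratio of Cxcr4 FPKM to that of Csf1r, the macrophage growth factor receptor, also chosen after its values were seen, was 0.802 and 0.506 at day 7, 0.842, 0.343 and 0.504 at day 1 and 0.0767 in the control. For 6 of the 7 macrophage markers all recanalized libraries were above the control in the ratio, and for 0 of 7 were both day 7 libraries above all day 1 libraries. Without day 1 replicate 1 they were above for Cd68 and, narrowly (0.506 against 0.504), Csf1r, and for no other of these markers. Lymphocyte markers were low throughout. The 5 T cell markers summed to 4.45 and 5.71 CPM at day 7, 0.320, 7.40 and 7.76 CPM at day 1 and 0 in the control, where all 5 had 0 counts, and the 4 B cell markers reached at most 0.941 CPM. The 5 neutrophil markers summed to 13.4 and 13.8 CPM at day 7, 23.5, 59.4 and 91.7 CPM at day 1 and 2.44 CPM in the control, with every day 1 library above both day 7 libraries. The part of any of these cells in the Cxcr4 difference was not tested. Platelet markers, with Gp1bb at 0 in every library, summed to 58.1 and 32.2 CPM at day 7, 116, 205 and 413 CPM at day 1 and 139 CPM in the control.

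**Figure D3:**
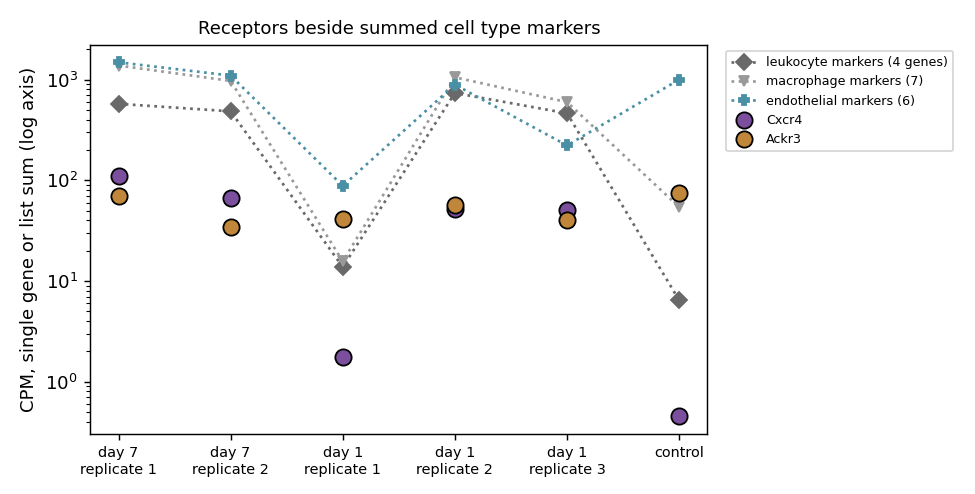
CPM on a log axis of Cxcr4 and Ackr3 (circles) in each library beside the summed CPM of pan-leukocyte, macrophage and endothelial markers (dotted lines join the 6 libraries for reading only). Cxcr4 and the leukocyte sum are both lowest in the control (0.455 and 6.43 CPM) and in day 1 replicate 1 (1.76 and 13.8 CPM), while the endothelial sum is lowest in day 1 replicate 1 (88.0 CPM).

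Ackr3 was also set beside endothelial cells and fibroblasts. Pecam1, an endothelial junction protein, gave an Ackr3 to Pecam1 FPKM ratio of 0.425 and 0.313 at day 7, 3.71, 0.521 and 1.81 at day 1 and 0.463 in the control. The high values belonged to day 1 replicates 1 and 3, where the 6 endothelial markers summed to 88.0 and 222 CPM, against 891 CPM in day 1 replicate 2 and 1000 CPM in the control. Relative to Pdgfra, a receptor of adventitial fibroblasts, the Ackr3 ratio was 2.53 and 1.05 at day 7, 3.76, 2.05 and 2.19 at day 1 and 5.09 in the control, with every recanalized library below the control. That held for 2 of the 5 fibroblast markers with counts in every library (Ly6c had 0 in 1 library), Pdgfra and Dpt. Per Col15a1, a basement membrane collagen, the Ackr3 ratio was 1.40 and 0.248 at day 7, 0.163, 0.437 and 0.348 at day 1 and 0.337 in the control, so the groups overlapped. Among the 6 endothelial markers all recanalized libraries were below the control in 1 and above it in 0. Without day 1 replicate 1 they were all below it for Cdh5, Kdr, Tie1 and Emcn, and not for Pecam1 and Vwf.

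Cxcl12 per Pdgfra was 3.68 and 3.49 at day 7, 2.37, 1.38 and 2.03 at day 1 and 1.35 in the control. Both day 7 libraries were above all others in this ratio, which held for 2 of the 5 fibroblast markers, Pdgfra and Col15a1. Per Dpt, the matrix protein dermatopontin, the Cxcl12 ratio was 0.157 and 0.126 at day 7, 0.332, 0.102 and 0.195 at day 1 and 0.160 in the control, so day 7 was not higher. Relative to Pecam1 the Cxcl12 ratio was 0.617 and 1.04 at day 7, 2.34, 0.351 and 1.67 at day 1 and 0.122 in the control, so day 7 lay within the range of day 1. For 0 of the 6 endothelial markers were both day 7 libraries above all day 1 libraries. Without day 1 replicate 1 they were above for Cdh5, Kdr and, narrowly (0.775 against 0.774), Tie1, and not for Pecam1, Vwf and Emcn. The 6 fibroblast markers summed to 1053 and 1386 CPM at day 7, 767, 883 and 579 CPM at day 1 and 854 CPM in the control, whereas the 6 smooth muscle markers summed to 17030 and 16670 CPM at day 7, 27630, 6352 and 9542 CPM at day 1 and 26900 CPM in the control. The part of these cells in the Cxcl12 difference was not tested.

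Likeness between genes was taken as the Pearson r of log2 CPM over the 6 libraries, among 9155 genes whose log2 CPM averaged 3 or more. All genes share the same 6 libraries, of which day 1 replicate 1 and the control stand apart, and no p is given. Cxcl12 was most like Msto1 (0.993), Cbr3 (0.991), Tbc1d2b (0.988), Cpxm2 (0.988) and Man1c1 (0.982). Cpxm2, a carboxypeptidase-like secreted protein, had 68.4 and 76.0 CPM at day 7, 5.96, 11.4 and 14.8 CPM at day 1 and 6.04 CPM in the control. Cxcr4 was most like Pip4k2a (0.996), Lilrb4 (0.995), Vps29 (0.995), Gsr (0.994) and Selplg (0.993). Selplg encodes PSGL-1, the selectin ligand of leukocytes, and had 48.2 and 38.9 CPM at day 7, 1.12, 50.4 and 28.9 CPM at day 1 and 0.195 CPM in the control. Ackr3 had lower values, with Mrpl22 (0.948), Tmem259 (0.947), Abt1 (0.940), Srebf1 (0.934) and Jagn1 (0.928). Between the members r was 0.813 for Cxcl12 and Cxcr4, -0.25 for Cxcl12 and Ackr3 and -0.27 for Cxcr4 and Ackr3.

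The surrounding pathway was followed in 45 listed genes, of which 44 passed the filter on low counts (Ctsg had 0 counts in every library). The list was chosen with earlier results of these data known, so the shares below are a description. edgeR's quasi-likelihood test with Benjamini-Hochberg adjustment over 15860 genes called 0 of the 44 in each comparison, at an adjusted p under 0.05, and 0% of all genes. At an unadjusted p under 0.05 it had 8 higher and 0 lower at day 7 over the control, where 6.12% of all genes were higher and 3.97% lower. At day 1 over the control it had 8 higher and 1 lower, where the shares were 6.13% and 2.53%, and at day 7 over day 1 it had 2 higher and 4 lower, where they were 4.67% and 5.43%. The median log2 fold change of the list was 1.14 at day 7 and 1.18 at day 1 over the control, against 0.10 and 0.06 over all genes, and 0.07 between the time points, against 0.00. It was above 0 for 31 of 44 at day 7 (54.8% of all genes), 32 at day 1 (54%) and 25 for day 7 over day 1 (49.9%). Both day 7 libraries were above the control for 26 of 44 (42.9% of all genes) and below it for 9 (36.2%). These counts were 2 and 1 of 5 other ligands and 2 and 1 of 4 binding partners. For 2 hypoxia factors they were 0 and 1, and for 5 other atypical receptors 2 and 2. Those of the remaining blocks are given below. DESeq2 called 11 higher and 0 lower at day 7, 11 and 1 at day 1, and 2 and 0 between the time points, where it called 4.92%, 5.1% and 3.18% of all genes. limma-trend on FPKM called 0 in each comparison.

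Without day 1 replicate 1, edgeR called 12 of 43 pathway genes as higher and 0 as lower at day 7, with 4.39% of all genes called, 3.81% higher and 0.577% lower. At day 1 it called 15 higher and 1 lower, with 5.61% called, 4.83% and 0.773%, and between the time points it called 0 of 43. The 12 genes were Cd74, Dpp4, Gng2, Pik3cg, Pik3r5, Dock2, Rac2, Vav1, Grk3, Arrb2, Rgs1 and Rgs16, and all of them were also among the 15 at day 1. The other 3 at day 1 were Cxcl11, Mmp3 and Jak2, and the lower one was Ackr4. In these fits too the control has 1 library and was assumed to vary like the treated ones. The library left out was the recanalized one most like the control. Since the list was also chosen with earlier results known, nothing is read from the share of it called.

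Among the other ligands, Cxcl11, which also binds ACKR3, had 0.299 and 0.425 CPM at day 7, 0.672, 3.67 and 1.67 CPM at day 1 and 0 counts in the control. Cxcl14, which binds CXCR4 in some assays, had 3.05 and 1.61 CPM at day 7, 0.128, 6.13 and 0.902 CPM at day 1 and 0 counts in the control. Adm, the vasodilator adrenomedullin that ACKR3 also removes, had 13.2 and 5.19 CPM at day 7, 7.36, 8.79 and 8.02 CPM at day 1 and 7.92 CPM in the control. Mif, an alternative ligand of both receptors, had at most 0.455 CPM, and its count is uncertain because the annotation lists 9 pseudogenes under its name.

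Among 4 binding partners, Cd74 is the class II invariant chain that pairs with CXCR4 as a receptor for MIF. It had 1132 and 727 CPM at day 7, 4.32, 315 and 147 CPM at day 1 and 0.292 CPM in the control. Its log2 fold change over the control was 11.62 (SE 3.43, edgeR adjusted p = 0.477) at day 7 and 9.04 (SE 3.11, adjusted p = 0.575) at day 1, neither called. Without day 1 replicate 1 it was 11.62 (SE 0.99, edgeR adjusted p = 0.00586) at day 7 and 9.61 (SE 0.93, adjusted p = 0.00725) at day 1. That fit is 1 of 10 alternatives to the fit of all 6 libraries, by edgeR, DESeq2 or limma. Over these 10 the adjusted p of Cd74 was 3.35e-08 to 0.765 at day 7 and 8.06e-06 to 0.788 at day 1. Sdc4, a proteoglycan that holds CXCL12 at the cell surface, had 217 and 81.5 CPM at day 7, 415, 555.3 and 271 CPM at day 1 and 125 CPM in the control. Every day 1 library was above every other. Taken singly, 27.5% of all genes had every day 1 library above the control, and 16% had both day 7 libraries below every day 1 library. Cxcr3, the receptor of CXCL11, had 2.11 and 1.34 CPM at day 7, 0, 1.48 and 0.451 CPM at day 1 and 0 in the control. Cd164, the remaining partner, averaged 399 ± 6.92 CPM at day 7 (SD, n = 2) and 442 ± 51.5 CPM at day 1 (SD, n = 3). The control had 483 CPM, with both day 7 libraries below it and day 1 on either side of it.

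Of 6 proteases tested that cut or activate the cutters of CXCL12, 5 had both day 7 libraries above the control and 0 both below. The shares of all genes were 42.9% and 36.2%. Mmp2, a gelatinase, had 2176 and 2286 CPM at day 7, 1192, 1093 and 1040 CPM at day 1 and 1135 CPM in the control. Both day 7 libraries were above all others, and the difference between day 7 and day 1 had an edgeR adjusted p of 0.459 (3.56e-05 to 1.0 over 13 alternatives), and DESeq2 called it. Dpp4, the peptidase that removes the active amino terminus, had 4.37 and 4.10 CPM at day 7, 0.192, 1.60 and 1.19 CPM at day 1 and 0.0649 CPM in the control. Mmp9 had 65.3 and 5.31 CPM at day 7, 0.800, 86.9 and 39.6 CPM at day 1 and 0.260 CPM in the control. Mmp14, which activates MMP2, had 717 and 1085 CPM at day 7, 343, 753 and 563 CPM at day 1 and 317 CPM in the control. Mmp3 was low, at 1.90 and 0.638 CPM at day 7, 0.192, 4.04 and 2.42 CPM at day 1 and 0 counts in the control, and Elane, the neutrophil elastase, had at most 0.370 CPM.

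Of 12 transducers, 8 had both day 7 libraries above the control and 3 both below, against 42.9% and 36.2% of all genes, and on plain library totals the counts were 9 and 1. Pik3r5, a regulatory subunit of the leukocyte PI3 kinase gamma, had 38.6 and 25.9 CPM at day 7, 2.43, 93.4 and 50.8 CPM at day 1 and 0.357 CPM in the control. Rac2, a GTPase of blood cells, had 48.7 and 37.0 CPM at day 7, 1.47, 73.2 and 39.8 CPM at day 1 and 0.584 CPM in the control, with log2 fold changes of 6.19 (SE 2.50, edgeR adjusted p = 0.477) at day 7 and 6.02 (SE 2.46, adjusted p = 0.578) at day 1. Without day 1 replicate 1 they were 6.19 (SE 0.63, edgeR adjusted p = 0.00747) and 6.59 (SE 0.64, adjusted p = 0.00725). Over the 10 alternatives to the fit of all 6 libraries (edgeR, DESeq2 or limma), that one included, the adjusted p of Rac2 was 0.00747 to 0.765 and 0.00415 to 0.811. In both genes, as in Cxcr4, day 1 replicate 1 stood nearest to the control. The broadly expressed Gnai3, an inhibitory G protein subunit, had 181 and 192 CPM at day 7, 217, 258 and 220 CPM at day 1 and 207 CPM in the control. Jak2, a kinase reported to act at CXCR4, had 48.4 and 73.5 CPM at day 7, 47.9, 145 and 93.6 CPM at day 1 and 25.97 CPM in the control. Gng2, a G protein gamma subunit, had 29.6 and 33.4 CPM at day 7, 8.68, 48.4 and 39.9 CPM at day 1 and 4.71 CPM in the control.

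Of 10 genes listed for ending CXCR4 signalling, 7 had both day 7 libraries above the control and 1, Itch, both below. The shares of all genes were 42.9% and 36.2%, and on plain library totals the counts were 8 and 1. Rgs1, a regulator of G protein signalling in leukocytes, had 133 and 88.8 CPM at day 7, 0.320, 47.3 and 75.3 CPM at day 1 and 0.357 CPM in the control. Rgs16 was above the control in all 5 libraries, day 1 replicate 1 included, with 7.70 and 6.71 CPM at day 7, 10.8, 21.7 and 9.05 CPM at day 1 and 0.552 CPM in the control. Its log2 fold change was 3.70 (SE 0.76, edgeR adjusted p = 0.477) at day 7 and 4.64 (SE 0.79, adjusted p = 0.385) at day 1. Without day 1 replicate 1 it was 3.70 (SE 0.73, edgeR adjusted p = 0.0464) and 4.79 (SE 0.76, adjusted p = 0.0232). Over the 10 alternatives to the fit of all 6 libraries (edgeR, DESeq2 or limma), that one included, the adjusted p of Rgs16 was 0.000678 to 0.765 and 3.46e-07 to 0.727. Grk2, a kinase that marks active receptors for arrestins, had 79.6 and 74.5 CPM at day 7, 48.8, 68.3 and 55.9 CPM at day 1 and 49.1 CPM in the control. Arrb2, one of the arrestins that ACKR3 signals through, had 24.7 and 20.9 CPM at day 7, 3.23, 18.7 and 17.3 CPM at day 1 and 3.41 CPM in the control. Rgs2, another regulator of G protein signalling, had 92.3 and 40.8 CPM at day 7, 62.7, 37.0 and 42.7 CPM at day 1 and 19.0 CPM in the control, whereas the ubiquitin ligase Itch, which sorts CXCR4 for degradation, had 95.7 and 116 CPM at day 7, 150, 122 and 122 CPM at day 1 and 137 CPM in the control.

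Of the hypoxia factors, known to raise CXCL12 and CXCR4 in other settings, Hif1a encodes HIF-1 alpha. It had 64.3 and 114 CPM at day 7, 114, 316 and 165 CPM at day 1 and 69.2 CPM in the control, and the day 7 libraries were on either side of the control. Epas1, which encodes HIF-2 alpha, had 56.0 and 51.9 CPM at day 7, 14.9, 122 and 36.8 CPM at day 1 and 63.3 CPM in the control.

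Among 5 other atypical receptors, Ackr4, which takes up homeostatic CC chemokines, had 10.3 and 10.8 CPM at day 7, 0.640, 1.94 and 1.64 CPM at day 1 and 7.82 CPM in the control. Its groups did not overlap, and its log2 fold change of day 7 over day 1 was 2.90 (SE 0.53, edgeR adjusted p = 0.403, 0.000155 to 1.0 over 13 alternatives). Ackr1, the Duffy antigen receptor, had 1.62 and 1.97 CPM at day 7, 1.73, 2.50 and 0.483 CPM at day 1 and 3.18 CPM in the control. Ccrl2, which presents chemerin, had 6.14 and 2.92 CPM at day 7, 9.16, 8.01 and 16 CPM at day 1 and 5.42 CPM in the control, with both day 7 libraries below all day 1 libraries. Ackr2, a scavenger of inflammatory CC chemokines, had 1.78 and 0.577 CPM at day 7, 0, 0.740 and 0.161 CPM at day 1 and 0.519 CPM in the control. Gpr182, an endothelial receptor reported to scavenge CXCL12 and named here after its values were seen, had 7.14 and 6.10 CPM at day 7, 7.49, 5.36 and 4.38 CPM at day 1 and 7.31 CPM in the control.

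**Figure D4:**
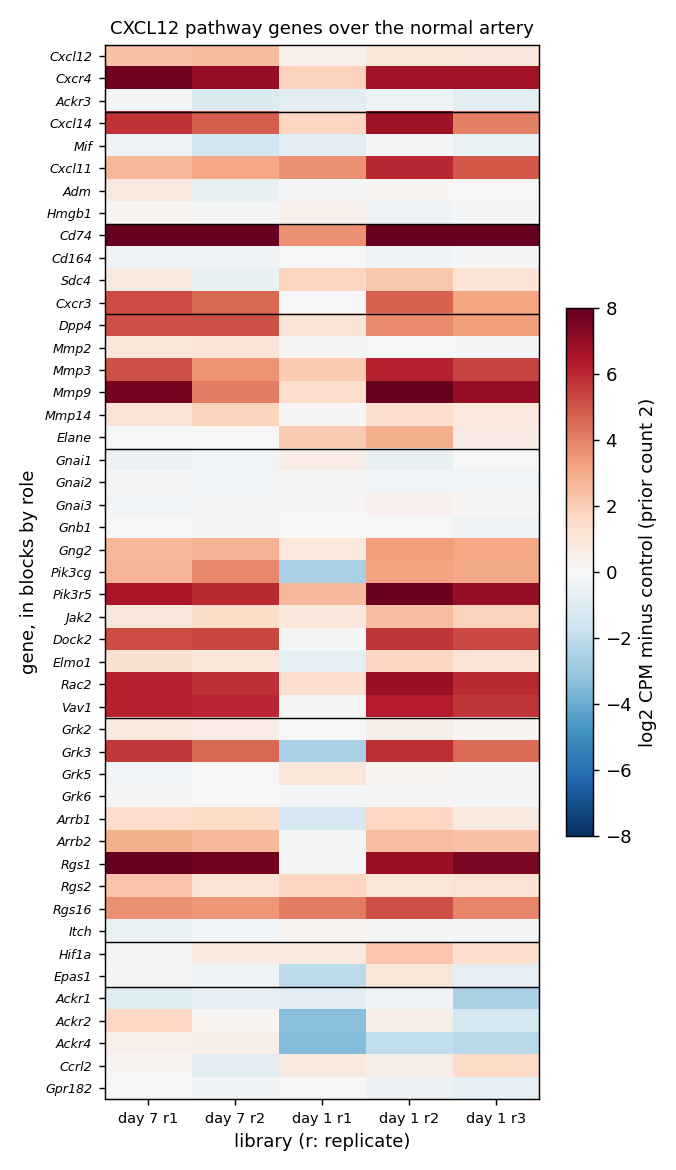
Log2 CPM minus the control (prior count 2) for the 3 members (top block) and the 44 pathway genes tested, in blocks by role, for the day 7 and day 1 libraries. Colours end at 8 in each direction, which Cd74 passes in 4 libraries (up to 11.66), Rgs1 in day 7 replicate 1 (8.33) and Mmp9 in day 1 replicate 2 (8.10). Cxcr4, Cd74, Pik3r5, Rac2, Vav1 and Rgs1 are dark in all columns but that of day 1 replicate 1, where Cxcr4 is at 1.83.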

How the data were processed

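Raw read counts per gene symbol and FPKM values, both deposited by the authors, were used for 6 libraries. The submitters' processing notes list StringTie 1.3.1, HISAT2, Bowtie2 2.2.8 and fastp 0.18.0 with no roles. Genome build, annotation and strandedness: not given in the sources used here. RefSeq (GRCr8) lists 0 genes overlapping each member.

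Genes passing filterByExpr by group (15860 of 24005) were fitted in R 4.3.3 by edgeR 4.0.16 (quasi-likelihood test, robust option) with TMM factors and 3 group means over all 6 libraries. The fit leaves 3 residual degrees of freedom, none from the control. SE values are the log2 fold change divided by the root of F. The median log2 fold change of day 7 over day 1 was 0.00 over all genes. The 3 members and the gene lists were chosen with earlier results of these data known. Of each list the text names genes called, or else up to 3 with the smallest unadjusted p in a comparison, and Gpr182 and some genes called without day 1 replicate 1 besides. Alternatives were factors by upper quartile or by median of ratios, no filter, DESeq2 1.42.0, limma 3.58.1 on log2(FPKM + 1), leaving out each treated library, a replicate block and, chosen after seeing the data, the 5 treated libraries alone, a block by the numbers in the descriptions, ratios to every marker of a list and plain totals for non-overlapping genes. The fit was tested on simulated data. Intervals cover counting error only, and 3 counts correspond to 0.0598 to 0.0974 CPM.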

Additional observations from a re-analysis of the deposited data

Results flagged for a closer look

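Ackr4 was below the control in all 3 day 1 libraries and above it in both day 7 libraries. Over this single control its edgeR log2 fold change was -2.47 (SE 0.61) at day 1. At day 7 it was only 0.43 (SE 0.71), which is less than its SE. Its log2 fold change of day 7 over day 1 was 2.90 (edgeR adjusted p = 0.403, 0.000155 to 1.0 over 13 alternatives). Gnai3 went the other way, above the control in all 3 day 1 libraries and below it in both day 7 libraries, with a log2 fold change of day 7 over day 1 of -0.31 (edgeR adjusted p = 0.611). This pattern of Gnai3 held with TMM factors but not on plain library totals, where day 7 replicates 1 and 2 had 192 and 202 CPM and day 1 replicate 1 had 188 CPM, against 199 CPM in the control. Neither difference between the time points passed the edgeR test, and the share of all genes with such a pattern was not computed.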

How the results depend on the processing

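Among the members, Cxcl12 and Cxcr4 kept the direction of their log2 fold changes under every alternative run. With each treated library left out in turn, Cxcl12 ranged from 2.37 to 2.53 at day 7 over the control, 0.70 to 0.95 at day 1 over it and 1.51 to 1.75 for day 7 over day 1. Cxcr4 ranged from 7.17 to 7.90, 5.84 to 6.81 and 0.77 to 1.74. Ackr3 ranged from -1.12 to -0.084, -0.85 to -0.61 and -0.44 to 0.60, so its direction between the time points turned without day 7 replicate 1. limma on log2(FPKM + 1), where the added 1 exceeds the control's FPKM, gave 3.32 for Cxcr4 at day 1 over the control.

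With edgeR, leaving out 1 treated library gave 0 to 693 genes called at day 7 over the control and 0 to 885 at day 1 over it, and 0 to 12 and 0 to 16 pathway genes, with the nonzero counts all from leaving out day 1 replicate 1. Between the time points it called 0 in each case. DESeq2 called 781, 809 and 505 genes at day 7 over the control, day 1 over the control and day 7 over day 1, and 11, 12 and 2 pathway genes. Without a count filter edgeR called 1 gene at day 7, and limma on FPKM called 2 at day 7 and 1 at day 1 over the control. The cause of these differences was not tested.

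The replicate block, from the numbers in the titles, called 0 genes for day 7 over day 1, as did the fit without it on the same 5 libraries, and gave 1.76 for Cxcl12, 3.10 for Cxcr4 and 0.01 for Ackr3. Libraries with the same number had deviations correlated at -0.05 and -0.05. The deviations of the 2 day 7 libraries from their mean mirror each other, so these values cannot show whether a pair shares a rat or a batch. The descriptions number the day 7 libraries 2 and 3 where the titles have 1 and 2, so the block may join the wrong libraries. With the description numbers, tried after seeing the data, the replicate block called 103 genes and 0 pathway genes, with 1.504 for Cxcl12, 0.73 for Cxcr4 and 0.03 for Ackr3. Deviations of those pairs correlated at 0.05 and -0.01. Depth limits Cxcr4 most in the control, with 14 counts.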
